A study of Mus musculus with 2 samples.

Results

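In droplet-based single-cell RNA sequencing, most barcodes never meet a whole cell and collect only a few transcripts. The barcodes described here are those that held 10 to 100 unique molecular identifiers (UMIs, each standing for 1 captured transcript molecule) in 2 libraries of sorted hippocampal microglia. They numbered 153497 of the 3897548 barcodes in the files, with 77626 in the FGR library, against 75871 in the Control library. They were chosen by their UMI total alone and summed per library into a low-UMI pool. Each low-UMI pool was set against the summed barcodes of at least 1500 UMIs of the same library, called the cell pool.

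The study compared hippocampal microglia of mice with fetal growth restriction (FGR), which is impaired growth before birth, with those of Control mice. Both groups were 3 weeks past birth and carried the genotype Tmem119-tdTomato+/-, in which a red fluorescent protein marks cells that use the microglial gene Tmem119. Tmem119-positive cells were collected by fluorescence-activated sorting before the 10x Genomics 3′ libraries were made, so the sort should leave few cells of other types. Each group was 1 library, and how many mice each holds is not stated in the labels, nor is the way in which growth was restricted. No test between groups was therefore possible, no p-value is given, and all intervals are at 95% and cover counting error only.

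A freshly dissociated brain sheds pieces of cells as well as whole cells. Oligodendrocytes wrap axons in myelin and carry the mRNAs of some myelin proteins out into the sheath, and neurons carry a small set of mRNAs into their dendrites, where these are translated near synapses. Red blood cells have no nucleus, and the mRNA they still carry is largely globin mRNA. Microglia, the immune cells of the brain, express genes such as P2ry12, C1qa and Cx3cr1.

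One of the transcripts that most set the low-UMI pools apart was Bc1, a small non-coding RNA that neurons transcribe with RNA polymerase III and transport into dendrites. It lies on chromosome 7 of the GRCm38 build (GENCODE M21), at chr7:144914470-144914637 on the plus strand, and is 168 bases long. Its sequence is shown because it had a like ratio in both libraries and is rich in A, which makes up 41.7% of its bases. The capitals mark its 3 runs of at least 5 A, the longest of which holds 23 and starts at base 77.
Bc1: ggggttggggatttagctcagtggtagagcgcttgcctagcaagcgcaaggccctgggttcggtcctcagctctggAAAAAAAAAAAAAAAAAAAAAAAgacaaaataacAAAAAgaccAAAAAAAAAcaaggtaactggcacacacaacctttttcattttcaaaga

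The low-UMI pools were small beside the cells. They held 2617933 UMIs (5.15% of the library) in the FGR library, against 2912602 (4.94%) in the Control library, over 14810 and 15286 genes. The cell pools held 45511987 UMIs from 8647 barcodes in the FGR library and 53624069 UMIs from 10706 barcodes in the Control library. The median low-UMI barcode had 30 (FGR) and 35 (Control) UMIs, against medians of 4913 and 4654.5 in their cells. In both libraries the UMI totals formed a separate peak inside the chosen range, with its top at 27 UMIs in the FGR library and at 32 in the Control library, above a trough at 12 and 13 UMIs.

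**Figure D1:**
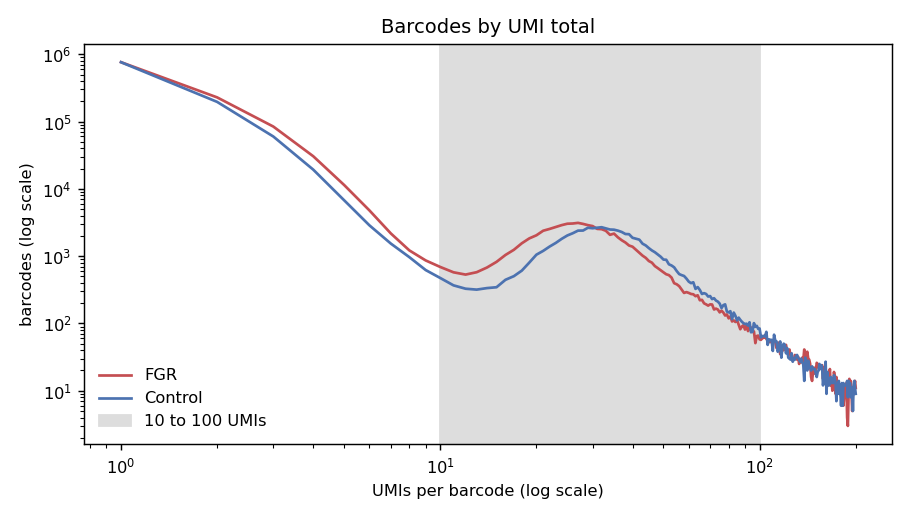
Number of barcodes at each UMI total up to 200 (both axes on log scales) in the FGR and Control libraries, with the low-UMI range of 10 to 100 UMIs shaded. Both libraries show a peak inside the low-UMI range, at 27 UMIs in the FGR library, against 32 UMIs in the Control library.

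Some low-UMI barcodes resembled other barcodes in sequence. A single base separated 1.73% of them in the FGR library, against 1.83% in the Control library from a cell barcode of the same library. There were 1707 low-UMI barcodes and 31 cell barcodes whose sequence occurred in that range in both libraries. Groups of barcodes that share their last 9 bases held 1.18% of the low-UMI barcodes of the FGR library and 0.634% of those of the Control library. One such end, TCGACGCTG, carried 409 of the 445 Ttr UMIs found in Control barcodes of 5 to 19 UMIs. The Control values of Ttr (transthyretin, a product of the choroid plexus) in that range thus rest on related barcodes. That end held 393 Control barcodes of 5 to 19 UMIs, but 58 of 10 to 19 and 16 of 20 to 100. Leaving out the shared ends changed no count of genes by over 1.5 times.

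The low-UMI pools were close to the sorted cells in most genes, and differed from them in a short list. A gene counted as measured at 50 CPM (UMIs of a gene per 1000000 UMIs of its pool) or more in at least 1 of the 2 pools, and as higher or lower when the whole interval of its ratio lay past 2-fold. A gene could thus be measured through the pool where it was high. In the FGR library 32 of 3497 measured genes (0.915%) were higher in the low-UMI pool and 7 (0.2%) lower. In the Control library 54 of 3590 (1.5%) were higher and 7 (0.195%) lower. Dividing by the median ratio gave 36 higher and 2 lower in the FGR library. Of 3363 genes measured in both libraries, 28 (0.833%) were higher in both, 5 (0.149%) were lower in both and 0 went in opposite directions. The ratio lay within 2-fold for 97.9% of measured genes in the FGR library, against 97.5% in the Control library, and the median ratio on the log2 scale was −0.16 in the FGR library, against −0.24 in the Control library. That median came to 0.01 and 0.00 when mitochondrially coded genes, Gm42418 and AY036118 were left out of the totals.

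The 28 genes higher in both libraries fall into few kinds. They included 12 mitochondrially coded genes, the 4 globin genes Hba-a1, Hba-a2, Hbb-bs and Hbb-bt, the myelin genes Mbp and Mobp, the astrocyte genes Mt3 and Slc1a2, the neuronal RNA Bc1, and Cpe, Selenow, Snhg9, Clcf1, Ftl1-ps1 and Gm42418. Ftl1-ps1 is a pseudogene of the ferritin light chain and may have taken up reads of its parent gene. The 16 of these genes that are coded in the nucleus span a median of 3513 bases of the genome, against 25859 bases for all 3363 measured genes and 35369 bases for the 5 lower genes. The lower genes with known products were Nrp1, a receptor for semaphorins and VEGF, and Glg1, a protein of the Golgi apparatus. Nrp1 stood at 45.1 CPM in the low-UMI pool and 120 CPM in the cells of the FGR library (ratio 0.376, interval 0.310 to 0.451), and at 47.4 and 128 CPM in the Control library (ratio 0.369, 0.310 to 0.437).

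**Figure D2:**
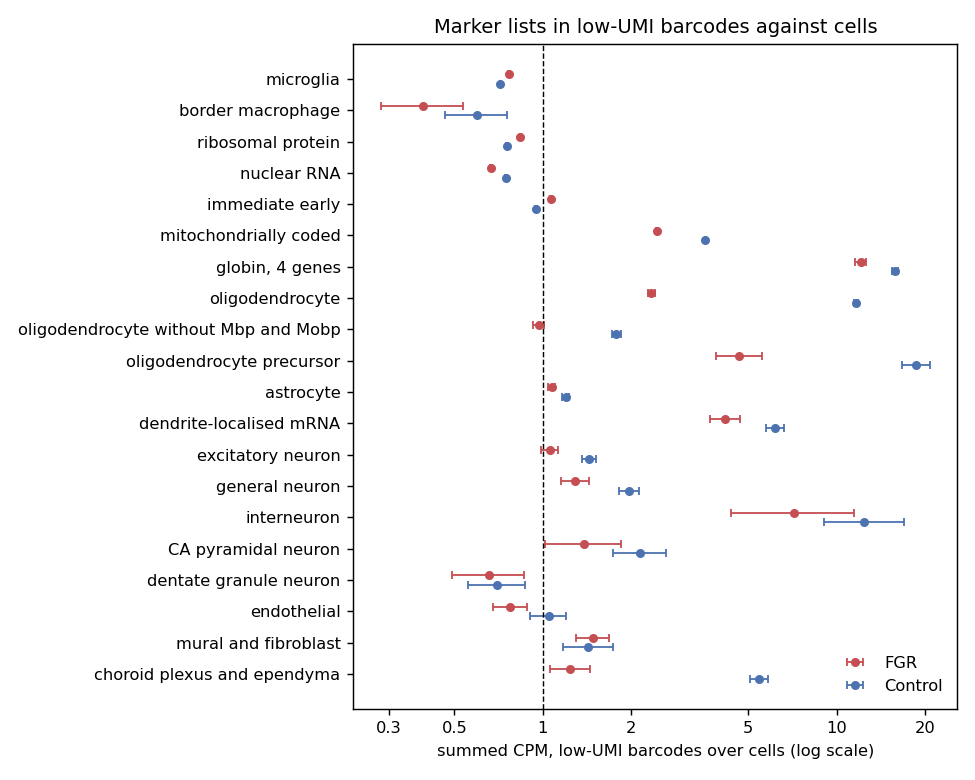
Ratio of summed CPM, low-UMI pool over cell pool (log scale), for the gene lists, with exact 95% intervals for counting error, in the FGR and Control libraries. The globin list lies at 12.1 in the FGR library, against 15.8 in the Control library, and the microglial list lies below 1 in both, at 0.766 and 0.716.

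Microglial transcripts were somewhat below their level in the cells, with little spread between genes. The 20 listed microglial genes summed to 41899 CPM in the low-UMI pool and 54704 CPM in the cells of the FGR library, a ratio of 0.766 (0.761 to 0.771). The Control sums were 39235 CPM in the low-UMI pool and 54778 CPM in the cells, for a ratio of 0.716 (0.712 to 0.720). All 20 were measured and 0 were past 2-fold in either direction, with ratios of single genes from 0.607 to 1.12 in the FGR library and from 0.559 to 0.893 in the Control library. Relative to the median gene the list stood at 0.854 and 0.843. The low-UMI level of the marker most tied to the sort, Tmem119, was 687 CPM against 949 CPM in FGR cells and 629 CPM against 910 CPM in Control cells.

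Cx3cr1, the fractalkine receptor of microglia, reached 3524 CPM in the low-UMI pool and 4243 CPM in the cells of the FGR library (ratio 0.831, 0.813 to 0.848), and 4280 and 4795 CPM in the Control library (ratio 0.893, 0.877 to 0.909). C1qa, a chain of complement C1q, reached 5067 and 7058 CPM in the FGR library (ratio 0.718) and 4281 and 6473 CPM in the Control library (ratio 0.661). P2ry12, a purinergic receptor of resting microglia, had ratios of 0.691 (0.671 to 0.711) and 0.706 (0.689 to 0.723). These genes were thus below their level in cells, and Cx3cr1 was less so than P2ry12 in both libraries. Cst3, the secreted protease inhibitor cystatin C, which microglia also express strongly, stood at 25061 against 34852 CPM in the FGR library and at 17229 against 29583 CPM in the Control library. Markers of macrophages at the borders of the brain were few, at 41 UMIs in the FGR low-UMI pool and 72 in the Control one (ratios to cells of 0.392 and 0.597). The 9 genes of other blood leukocytes had 0 UMIs in both low-UMI pools, and a floor of 3 counts corresponds to 1.15 CPM in the FGR library and 1.03 CPM in the Control library.

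Mbp and Mobp, genes of myelin, had some of the largest ratios. Mbp, which codes for myelin basic protein, reached 961 CPM in the low-UMI pool of the FGR library, against 37.8 CPM in its cells, a ratio of 25.4 (23.9 to 27.0). In the Control library it reached 6226 CPM in the low-UMI pool, against 86.4 CPM in the cells, a ratio of 72.04 (69.8 to 74.4). Mobp (chr9:120149707-120181484, plus strand), which codes for another protein of compact myelin, stood at 298 against 9.69 CPM in the FGR library (ratio 30.7, 27.3 to 34.6) and at 1930 against 21.5 CPM in the Control library (ratio 89.7, 84.2 to 95.6). Mbp and Mobp kept nearly the same proportion to each other in the 2 low-UMI pools, with 3.22 Mbp UMIs per Mobp UMI in the FGR library, against 3.23 in the Control library, against 3.90 and 4.02 in the cells.

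Other oligodendrocyte genes varied in the FGR library. Cnp, an enzyme of myelin-forming cells, stood at 39.7 CPM in the low-UMI pool and 36.6 CPM in the cells of the FGR library, under the 50 CPM minimum (ratio 1.09, 0.881 to 1.32), whereas in the Control library it stood at 142 and 38.0 CPM, a ratio of 3.75 (3.37 to 4.17). Trf, the iron carrier transferrin, which oligodendrocytes make, stood at 481 against 600 CPM in the FGR library (ratio 0.801) and at 399 against 577 CPM in the Control library (ratio 0.690). Of the 14 listed oligodendrocyte genes, 2 of the 5 measured were higher in the FGR library (Mbp and Mobp) and 5 of the 7 measured in the Control library. Without Mbp and Mobp the list stood at 809 CPM in the low-UMI pool and 837 CPM in the cells of the FGR library (ratio 0.967) and at 1241 and 698 CPM in the Control library (ratio 1.78). Bcas1, a gene of oligodendrocytes that are beginning to make myelin, was counted 99 times in the FGR low-UMI pool and 478 times in the Control one, with 82 and 165 UMIs in the cells, for ratios of 20.99 (15.5 to 28.5) and 53.3 (44.6 to 64.1). It passed the 50 CPM minimum in the Control library only.

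Neuronal transcripts were rarer and were led by RNAs known from dendrites. Bc1, whose sequence is given above, had 625 UMIs (239 CPM) in the low-UMI pool and 317 UMIs (6.97 CPM) in the cells of the FGR library, a ratio of 34.3 (29.9 to 39.4). In the Control library it had 1697 UMIs (583 CPM) and 891 UMIs (16.6 CPM), a ratio of 35.1 (32.3 to 38.1). The 2 libraries thus gave overlapping intervals for Bc1, which they did not for Mbp. Camk2a, a calcium-dependent kinase of excitatory synapses whose mRNA is transported to dendrites, had 120 UMIs (45.8 CPM, ratio 12.96, 10.1 to 16.5) in the FGR low-UMI pool and 338 UMIs (116 CPM, ratio 10.9, 9.53 to 12.5) in the Control one. Its cell levels were 3.54 and 10.6 CPM, and because the FGR values stayed under 50 CPM the gene was called in the Control library only. Nrgn, the calmodulin-binding protein neurogranin, had 53 low-UMI UMIs in the FGR library (ratio 15.4) and 151 in the Control library (ratio 12.99).

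The 10 listed dendrite-localised mRNAs summed to 142 CPM in the low-UMI pool and 34.0 CPM in the cells of the FGR library, a ratio of 4.17 (3.71 to 4.68). The Control sums were 346 and 56.1 CPM, a ratio of 6.17 (5.74 to 6.62). As sums, the excitatory and general neuron lists, which are not limited to dendritic mRNAs, stood closer to the cell pools. The excitatory neuron list was at 356 against 336 CPM (ratio 1.06) in the FGR library and at 531 against 370 CPM (ratio 1.44) in the Control library. In that list Ppp3ca, a calcineurin subunit also found at 223 and 232 CPM in the cells, had ratios of 0.603 and 0.658. Without Ppp3ca and Gria2 the list had a ratio of 1.94 (1.78 to 2.12) in the FGR library. Slc17a7, a member outside the dendrite-localised list, was near Camk2a in its proportions. Camk2a UMIs per Slc17a7 UMI came to 10.9 in the low-UMI pool and 10.1 in the cells (FGR), and to 9.94 and 10.7 (Control). The low-UMI pools held only 11 (FGR) and 34 (Control) Slc17a7 UMIs. The general neuron list had ratios of 1.29 and 1.97. Its member Snap25 had only 10 (FGR) and 20 (Control) low-UMI UMIs, against raw counts of 12 and 48 in the far larger cell pools. Scaled to pool size, Snap25 was thus higher in the low-UMI pools, much as Camk2a was. Camk2a UMIs per Snap25 UMI came to 12 (6.30 to 25.7) in the low-UMI pool and 13.4 (7.47 to 26.5) in the cells (FGR). The Control values were 16.9 (10.8 to 28.0) and 11.9 (8.82 to 16.3). Interneuron genes did not stand close to the cells, but were few: they summed to 26 low-UMI UMIs in the FGR library, against 70 in the Control library (ratios 7.17 and 12.4). Markers of dentate granule neurons, one of the main cell types of the hippocampus, had ratios of 0.656 and 0.699 on 54 and 83 UMIs, and markers of CA pyramidal neurons had 1.39 and 2.15 on 51 and 105 UMIs. The low-UMI counts therefore held few transcripts that name a hippocampal region.

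Astrocyte genes were split. Slc1a2 (chr2:102658659-102790784, plus strand), the main glutamate transporter of astrocytes, stood at 104 CPM in the low-UMI pool and 17.8 CPM in the cells of the FGR library (ratio 5.85, 5.08 to 6.72) and at 189 and 24.4 CPM in the Control library (ratio 7.76, 7.01 to 8.57). Mt3, a metal-binding protein, had ratios of 6.72 and 9.86. Glul, the enzyme glutamine synthetase, and Slc1a3, another glutamate transporter, were abundant in the cell pools and had ratios of 0.959 and 0.745 in the FGR library and of 0.826 and 0.764 in the Control library. The whole list of 15 genes summed to ratios of 1.07 and 1.19, with 3 of 5 measured genes higher in the FGR library and 4 of 6 in the Control library. Endothelial markers had ratios of 0.776 and 1.05, and markers of mural cells and fibroblasts 1.48 and 1.43, with 0 genes measured in either list.

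Blood RNA in the low-UMI pools was globin. Hbb-bs (chr7:103826534-103828096, minus strand), an adult beta-globin, stood at 632 CPM in the low-UMI pool and 55.5 CPM in the cells of the FGR library, a ratio of 11.4 (10.7 to 12.1). Its Control levels were 1977 and 123 CPM, a ratio of 16.1 (15.6 to 16.7). The 4 globin genes together summed to 1373 CPM in the low-UMI pool of the FGR library (ratio 12.1, 11.6 to 12.6) and to 3676 CPM in that of the Control library (ratio 15.8, 15.4 to 16.2). Single copies are uncertain, since the transcripts of Hba-a1 and Hba-a2 match at 99.8% of aligned bases and those of Hbb-bs and Hbb-bt at 92.7%. The proportion of Hba-a1 to Hbb-bs had overlapping intervals in the low-UMI pool and the cells, at 0.491 (0.451 to 0.534) and 0.440 (0.409 to 0.472) in the FGR library and at 0.371 (0.353 to 0.390) and 0.357 (0.340 to 0.374) in the Control library. That of Hbb-bt to Hbb-bs overlapped in the FGR library, at 0.303 (0.274 to 0.335) and 0.272 (0.25 to 0.296), but not in the Control library, at 0.195 (0.183 to 0.208) and 0.244 (0.231 to 0.258).

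Mitochondrial and ribosome-related RNA took the largest share of the difference in UMIs. The 13 mitochondrially coded genes summed to 54640 CPM in the low-UMI pool and 22373 CPM in the cells of the FGR library (ratio 2.44, 2.43 to 2.46) and to 81430 and 22800 CPM in the Control library (ratio 3.57, 3.56 to 3.59). Of these, 12 were higher in the FGR pool and all 13 in the Control pool. Without the barcodes rich in mitochondrial, Mbp or globin UMIs, left out after the data were seen, the summed ratio was 1.12 (FGR) and 1.58 (Control). They were left out of the low-UMI pool only, so this ratio falls by construction. Gm42418, a gene model that overlaps ribosomal RNA sequence, was the most abundant gene of both low-UMI pools, at 71751 against 16774 CPM in the FGR library (ratio 4.28) and at 84294 against 18100 CPM in the Control library (ratio 4.66). AY036118 lies inside Gm42418 on the other strand, and its counts may be shared with it. By contrast the nuclear non-coding RNA Malat1 was lower than in cells in both libraries, at 16235 against 24376 CPM in the FGR library (ratio 0.666) and at 17023 against 22763 CPM in the Control library (ratio 0.748). The 24 listed ribosomal protein genes had summed ratios of 0.839 and 0.754, with 0 called.

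As list sums, immediate early and glucocorticoid-responsive genes were close to their level in the cells. The 20 immediate early genes summed to ratios of 1.07 in the FGR library, against 0.945 in the Control library, and 10 glucocorticoid-responsive genes to 1.08 and 0.923, with 0 called in either list. Single measured genes ran from 0.645 to 1.78 (FGR) and 0.593 to 1.70 (Control) in the first list. In the second they ran from 0.689 to 1.83 and 0.548 to 1.52. The 10 cytokine and NF-kB target genes summed to 1.38 (FGR) and 1.27 (Control), with 0 called. Ccl4, a chemokine that microglia release, stood at 5515 against 3741 CPM in the FGR library (ratio 1.47) and at 2163 against 1650 CPM in the Control library (ratio 1.31).

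The low-UMI range was not uniform. In FGR barcodes of 10 to 19, 20 to 39, 40 to 69 and 70 to 100 UMIs, Mbp stood at 161, 496, 1527 and 2120 CPM. In Control barcodes of the same ranges it stood at 1137, 2180, 8525 and 14561 CPM, so in both libraries Mbp was highest in the fullest low-UMI barcodes. Just outside the range it was at 84.5 CPM (5 to 9 UMIs) and 760 CPM (above 100 and under 200 UMIs) in the FGR library and at 320 and 9284 CPM in the Control library. Mitochondrially coded genes followed the same order, with 22242, 33525, 75761 and 118044 CPM in the FGR library and 27930, 40356, 97379 and 191415 CPM in the Control library. Camk2a stood at 0 (0 UMIs, which allows up to 20.1 CPM), 22.1, 76.6 and 103 CPM in the FGR library and at 43.7, 48.9, 140 and 300 CPM in the Control library.

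The other RNAs ran differently along the UMI total. The microglial list was lowest in the fullest of these barcodes, at 43950, 43909, 40164 and 35645 CPM in the FGR library and at 43367, 42288, 38550 and 29336 CPM in the Control library. The globin genes showed no such order within the range, at 1545, 1383, 1167 and 1805 CPM in the FGR library and at 3119, 3870, 3389 and 4028 CPM in the Control library. They were highest above it, at 10876 CPM in FGR barcodes of 200 to under 500 UMIs and 37124 CPM in Control ones. Gm42418 differed across the lower edge. It stood at 9506 CPM in FGR barcodes of 5 to 9 UMIs and 73203 CPM in those of 10 to 19, and at 13807 and 74868 CPM in the same Control ranges. The lower edge of 10 UMIs therefore lay near a change in what the barcodes held.

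**Figure D3:**
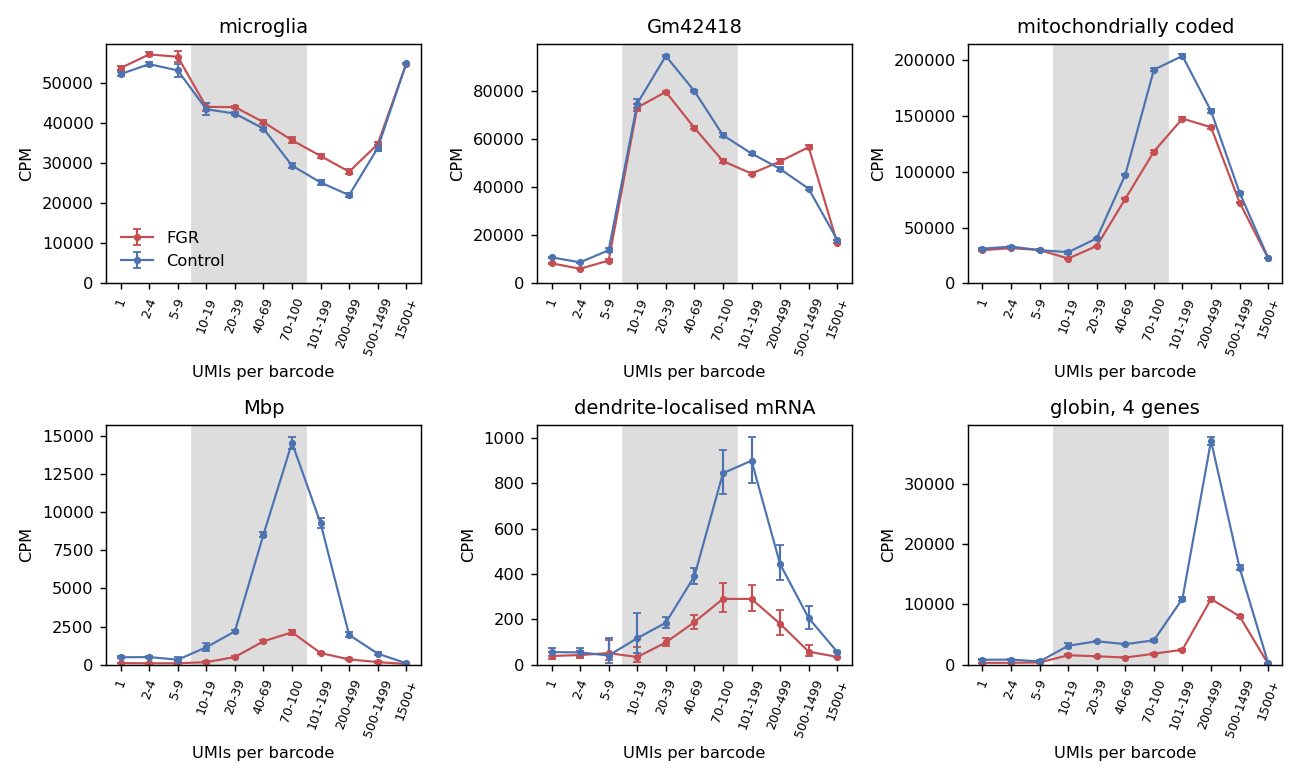
Level in CPM (linear scale from 0) of selected genes and lists in barcodes grouped by UMI total, from 1 UMI at the left to 1500 or more at the right, for the FGR and Control libraries, with exact 95% intervals for counting error and the range of 10 to 100 UMIs shaded. Mbp and mitochondrially coded genes are highest near the upper edge of the shaded range, while the microglial list is lowest in barcodes of 200 to under 500 UMIs, at 27811 CPM in the FGR library and 21967 CPM in the Control library.

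Some transcripts were gathered into few barcodes. Of the Mbp UMIs in the low-UMI pools, 61.2% (FGR) and 71.97% (Control) lay in barcodes with at least 3 of them, and 1 barcode held up to 17 and 24. For C1qa the share was 2.28% and 2.05% and for Bc1 1.44% and 1.83%. The pooled counts of Mbp thus came largely from 302 FGR barcodes and 2551 Control barcodes, while C1qa and Bc1 were seldom found 3 or more to a barcode. Without all barcodes rich in Mbp, globin or mitochondrial UMIs, an alternative added after the data were seen, the low-UMI over cell ratio of Mbp was 9.93 (FGR) and 21.2 (Control), and that of Camk2a 6.77 and 6.04. The fall for Mbp follows from the choice itself, since these barcodes were left out of the low-UMI pool only. The globin genes lay between, with 21.5% and 29.4% of UMIs in 58 FGR and 391 Control barcodes, and a maximum of 67 and 60 UMIs in 1 barcode. How a label of free RNA applies to barcodes with many copies of 1 transcript was not tested, and the pools are named here by their UMI range.

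The barcodes with at least 3 Mbp UMIs were rich in other myelin genes too. They were compared with low-UMI barcodes without Mbp, with Mbp left out of all totals. In the FGR library a single UMI of the Mbp-rich barcodes came to 64.2 CPM and passed the 50 CPM minimum by itself, so no count of called genes is given. Mobp reached 22024 CPM in the Mbp-rich barcodes and 81.8 CPM in those without Mbp in the FGR library, and 22953 and 367 CPM in the Control library. The 14 listed oligodendrocyte genes, without Mbp, summed to 28573 CPM in the Mbp-rich barcodes and 819 CPM in those without Mbp in the FGR library (ratio 34.9, 31.4 to 38.7) and to 28445 and 1262 CPM in the Control library (ratio 22.5, 21.5 to 23.6). Cnp was 15.2-fold and 5.08-fold higher, and Bcas1 151-fold and 37.7-fold higher. Camk2a had 0 UMIs in the FGR Mbp-rich barcodes, which at their depth allows up to 193 CPM, and 9 UMIs in the Control ones. The microglial list was at 26326 against 42125 CPM in the FGR library (ratio 0.625, 0.566 to 0.689) and at 26700 against 40549 CPM in the Control library (ratio 0.658, 0.637 to 0.680), so these barcodes also held microglial transcripts. The Mbp-rich barcodes were also fuller, with medians of 53.5 (FGR) and 58 (Control) UMIs, against 30 and 34 in those without Mbp. The 2 kinds were not matched by UMI total.

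A second kind of barcode was rich in mitochondrial UMIs. Those with at least 20% of mitochondrially coded UMIs numbered 4502 (5.80%) in the FGR library, against 7358 (9.70%) in the Control library, and those under 10% numbered 68711 and 61015. The limit cuts a continuous range, and 1063 FGR and 1900 Control barcodes lay within 2 percentage points of it. Of the Mbp-rich barcodes, 33 of 302 (FGR) and 455 of 2551 (Control) were also rich in mitochondrial UMIs. These shares were larger than the 5.80% and 9.70% among all low-UMI barcodes. With mitochondrial UMIs left out of all totals, 37 of 3857 measured genes (0.959%) were higher in the mitochondria-rich barcodes of the FGR library and 78 of 3743 (2.08%) in those of the Control library, with 0 lower and 28 higher in both.

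Since a gene could pass the 50 CPM minimum through the mitochondria-rich barcodes alone, these counts do not compare the directions. Genes of neurons and synapses were among those higher. Camk2a stood at 456 CPM in the mitochondria-rich and 15.0 CPM in the mitochondria-poor barcodes of the FGR library, a ratio of 30.4 (19.6 to 47.8), and at 696 and 37.0 CPM in the same Control barcodes, a ratio of 18.8 (14.4 to 24.8). These barcodes held 52.5% of the low-UMI Camk2a UMIs in the FGR library, against 53.6% in the Control library, on 5.59% and 9.73% of all low-UMI UMIs counted the same way. The 10 dendrite-localised mRNAs summed to 998 CPM in the mitochondria-rich and 77.3 CPM in the mitochondria-poor barcodes of the FGR library, a ratio of 12.9 (10.2 to 16.3), and to 1683 and 165 CPM in the Control ones, for a ratio of 10.2 (8.83 to 11.8). Among them are Map2 (a microtubule protein of dendrites) and Shank1 (a scaffold of the postsynaptic density). Shank1 was 13.9-fold and 17.4-fold higher, and Map2 11.5-fold and 13.6-fold. Hpcal4 and Celf4, which are also expressed in neurons, were 25.5-fold and 20.5-fold higher in the FGR library and 16.4-fold and 15.0-fold in the Control library. Neuronal genes outside the dendrite-localised list were thus also higher. Slc17a7 was 19.9-fold (FGR, under 50 CPM) and 7.66-fold (Control) higher, and Stmn2 19.1-fold (FGR, under 50 CPM) and 9.85-fold (Control). Nefl differed between libraries, at 2.65-fold (FGR, under 50 CPM) and 19.9-fold (Control).

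The neuronal RNA Bc1, also known from dendrites, and the glial and blood genes did not follow to that extent. Bc1 was 4.45-fold and 3.73-fold higher in the mitochondria-rich barcodes, Slc1a2 3.33-fold and 3.30-fold, and Mbp 2.37-fold and 2.43-fold. Hbb-bs had ratios of 0.713 and 0.818, Cx3cr1 0.979 and 0.888, and the microglial list 0.976 and 0.892. Mitochondria-rich barcodes were also fuller, with medians of 45 (FGR) and 52 (Control) UMIs, against 29 and 34 in the mitochondria-poor ones. Among barcodes of 40 to 100 UMIs alone, the Camk2a ratio was 28.5 in the FGR library, against 15.4 in the Control library, and that of Mbp 1.64 and 1.56.

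**Figure D4:**
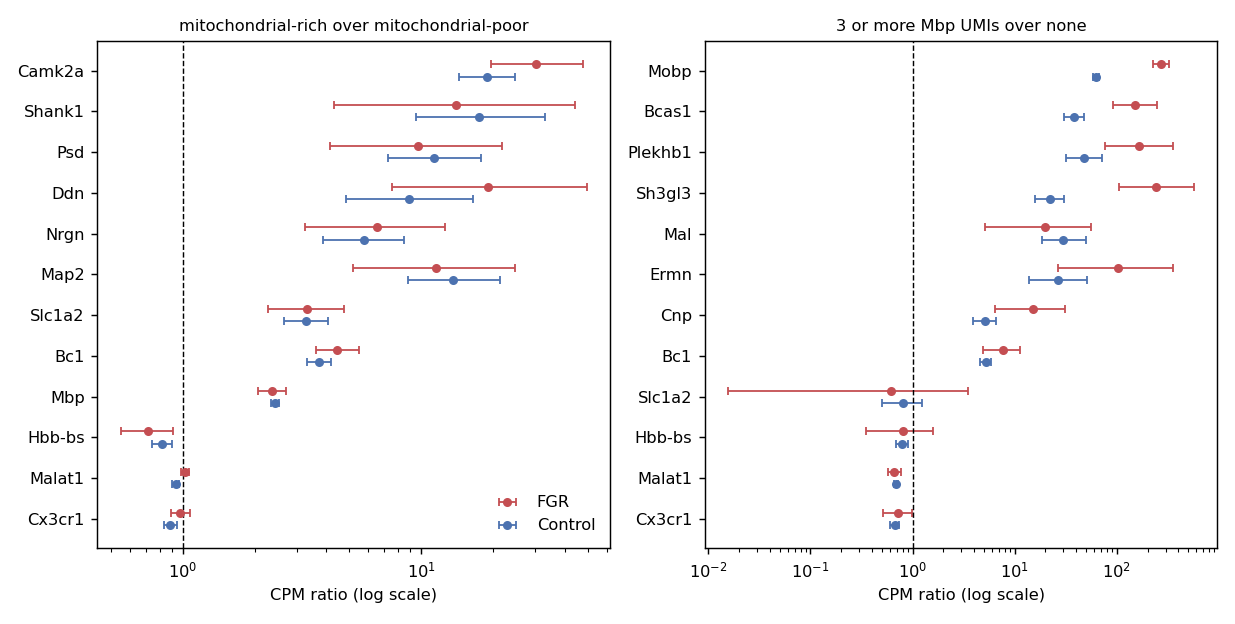
Ratio of CPM (log scale) between kinds of low-UMI barcodes in the FGR and Control libraries, with exact 95% intervals for counting error: barcodes rich over barcodes poor in mitochondrial UMIs, and barcodes with at least 3 over barcodes with 0 Mbp UMIs. Neuronal mRNAs such as Camk2a (30.4 in the FGR library, against 18.8 in the Control library) stand apart in the first comparison, more than Bc1 does. Myelin genes such as Cnp (15.2 and 5.08) stand apart in the second.

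The 2 low-UMI pools also differed from each other. A gene was called between libraries when the whole interval of its FGR over Control ratio lay past 1.5-fold. Among 3327 measured genes, the FGR low-UMI pool was higher in 74 (2.22%) and lower in 61 (1.83%), and in the cells of the same libraries 87 of 3512 (2.48%) were higher and 41 (1.17%) lower. The median ratio on the log2 scale was −0.00 in the low-UMI pools and −0.07 in the cells. Both comparisons rest on the same 2 libraries, so their values are set side by side and are not independent.

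Myelin and globin RNAs, Bc1 and some dendritic mRNAs were lower in the FGR low-UMI pool. Its Mbp level was 961 CPM against 6226 CPM in the Control pool (ratio 0.154, 0.148 to 0.161), and Mobp had the same ratio of 0.154. In the cells the FGR over Control ratio of Mbp was 0.438. Bc1 had a ratio of 0.410 in the low-UMI pools and 0.419 in the cells, Camk2a 0.395 and 0.333, and Hbb-bs 0.320 and 0.453. Of the 4 measured excitatory neuron genes 2 (Camk2a and Nrgn) were lower, the 1 measured general neuron gene was not called, and markers of dentate granule neurons had a ratio of 0.724 (0.504 to 1.03). The 4 globin genes were all lower (summed ratio 0.374), as were 5 of the 7 measured oligodendrocyte genes and 4 of the 13 mitochondrially coded genes (summed ratio 0.671). The microglial list had a ratio of 1.07 (1.06 to 1.08) with 0 genes called. The astrocyte list had a summed ratio of 1.42 in the low-UMI pools, but its members were split: of 6 measured, Glul (1.83) and Slc1a3 (1.77) were higher, Slc1a2 was lower (104 against 189 CPM, 0.549) and 3 were not called. In the cells Glul had 1.58, Slc1a3 1.82 and Slc1a2 0.728. For Mbp and globin the ratios were below 1 within ranges of UMI totals as well: in barcodes of 20 to 39, 40 to 69 and 70 to 100 UMIs the ratio of Mbp was 0.228, 0.179 and 0.146 and that of the globin genes 0.357, 0.344 and 0.448.

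The same differences appeared as shares of barcodes. At 20 UMIs per barcode, drawn at random from each barcode with at least that many (68083 in the FGR library, against 71344 in the Control library, leaving out 9543 and 4527), 1.04% of FGR barcodes held a Mbp UMI, against 6.05% of Control barcodes. For all UMIs the shares were 1.41% and 8.61%. A globin UMI occurred in 2.32% of FGR and 5.93% of Control barcodes (3.48% and 9.63% for all UMIs), and a Camk2a UMI in 0.0705% and 0.186% (0.135% and 0.413%). Cst3 went the other way, at 38.7% of FGR and 29.4% of Control barcodes (52.5% and 46.0%).

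Genes that separated the cells of the 2 libraries did so in the low-UMI pools too. The chemokine Cxcl10 stood at 154 CPM in the FGR low-UMI pool and 17.9 CPM in the Control one (ratio 8.62), with a ratio of 7.40 in the cells. The heat shock protein gene Hspb1 had ratios of 7.60 and 6.67, the histone gene Hist1h1c 5.53 and 4.54, the stress-induced Ddit4 5.44 and 5.77, and the phosphatase gene Dusp1 4.64 and 4.68. Hes1, a target of Notch signalling, was lower, with ratios of 0.283 and 0.279. Of 10 glucocorticoid-responsive genes 7 were higher in both the low-UMI pools and the cells (summed ratios 2.88 and 2.47). Of 20 immediate early genes 11 were higher and 1 lower in the low-UMI pools, against 10 and 1 in the cells. Over all measured genes 2.22% were higher and 1.83% lower in the low-UMI pools, and 2.48% and 1.17% in the cells. Both lists were chosen with earlier results of these data known. All 11 genes picked earlier as higher in FGR cells were also higher in the FGR low-UMI pool, and all 11 measured of 12 picked as lower were lower, but these genes had been chosen on the same libraries.

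For a few genes the low-UMI pools and the cells differed in their FGR over Control ratio. Ptgds, a prostaglandin synthase made by oligodendrocytes and the meninges, had ratios of 9.16 (6.77 to 12.6) and 165 (118 to 237), on 395 low-UMI UMIs in the FGR library, against 48 in the Control library. Ttr had ratios of 0.174 and 0.726, and the shared barcode end named above enters the low-UMI value in part. In barcodes of 20 to 39, 40 to 69 and 70 to 100 UMIs, where that end was rare, the Ttr ratio was 0.220, 0.197 and 0.0933. Whether the number of pieces of cells, the RNA within each or the handling of the 2 samples differed cannot be told apart with 1 library per group.

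**Figure D5:**
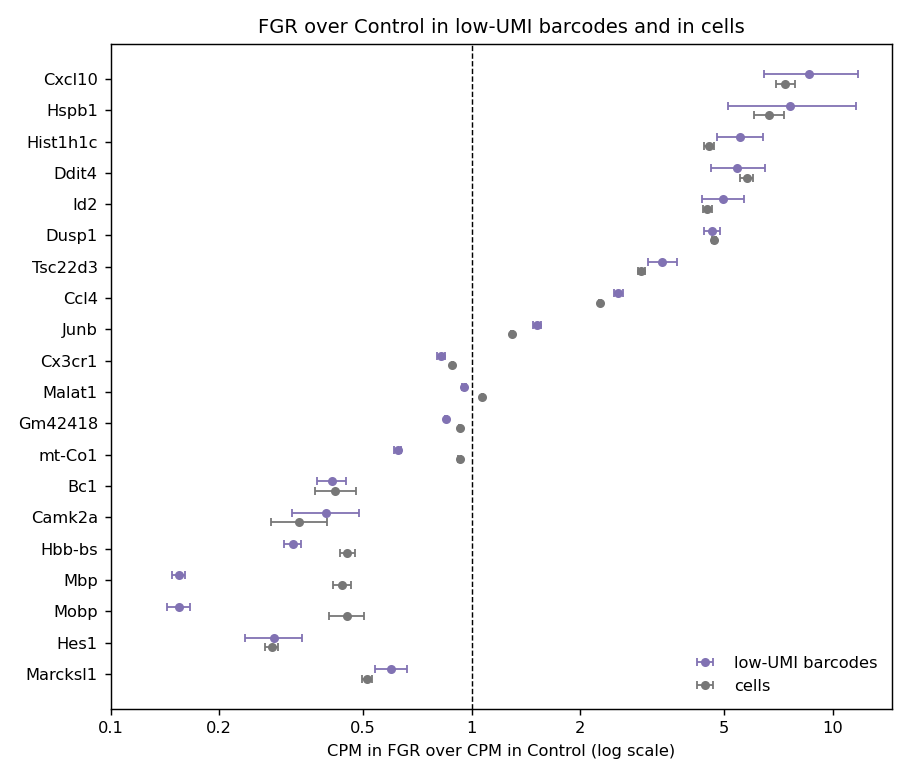
FGR over Control ratio of CPM (log scale) for selected genes in the low-UMI pools and in the cell pools, with exact 95% intervals for counting error. Mbp lies at 0.154 in the low-UMI pools and 0.438 in the cells, while Cxcl10 lies at 8.62 and 7.40.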

How the data were processed

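The deposited matrices hold UMI counts that are not normalized, for every barcode, cells or not. Per the file headers they come from Cell Ranger 4, while the submitters' processing notes name Cell Ranger 3.0, Seurat 5.0 and mm10. Neither the authors' annotation nor their use of strand in counting is given in these sources. Of 32285 gene IDs, 32235 were found in GENCODE M21 (GRCm38), and counts of 38 symbols with more than 1 ID were summed.

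Counts were summed per library over barcodes of 10 to 100 UMIs and of at least 1500 UMIs and scaled to CPM. No cell was clustered and no doublet caller was run. Intervals are exact (Poisson for levels, conditional binomial for ratios, Clopper-Pearson for shares, at 95%), and UMIs gathered in 1 barcode are not independent, so they cover counting error only. Among named genes at 50 CPM or more, a level's interval reached at most 16.9% to either side. Each list's UMIs were summed over all its members, measured or not, and its calls counted over its measured members.

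Genes named are the 12 with the largest and 12 with the smallest ratio called in both libraries, the 10 largest and smallest between libraries (predicted, ribosomal protein and sex-linked genes left out of both), up to 4 members of each of 26 lists, the 20 most abundant in the low-UMI pools, fixed microglial and marker genes, and genes named earlier for the cells. Genes named within the mitochondria-rich barcodes, Clcf1, Ftl1-ps1, Selenow, Slc17a7, Snap25 and Gria2 were named after their values were seen. Some genes are not reported here. The members, lists and kinds of barcodes were chosen with earlier results of these data known.

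The calculation was checked on simulated counts. Alternatives covered UMI ranges, barcodes near cells or shared between libraries, weighting, scaling, the CPM minimum and the fold. Python 3.11.15, NumPy 2.4.6, SciPy 1.17.1, pandas 2.3.3 and matplotlib 3.10.9 were used.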

Additional observations from a re-analysis of the deposited data

How the results depend on the processing

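With 11 alternatives set at the start and 4 added after the data were seen, counts of called genes moved most with the CPM minimum and the fold. Higher genes in the FGR low-UMI pool (32) came to 20 at 10 to 50 UMIs, 20 without mitochondrial genes, 52 at a minimum of 20 CPM, 312 with no minimum, 14 at 3-fold, 20 without barcodes rich in mitochondrial, Mbp or globin UMIs (added) and 19 at 20 to 39 UMIs (added). Lower genes there (7) came to 4, 4, 16, 38, 1, 4 and 3 under the same alternatives, to 29 with barcodes weighted equally, to 2 over the median ratio and to 3 without mitochondrial genes, Gm42418 and AY036118 (added). In the Control library higher genes (54) came to 103 at 20 CPM, 760 with no minimum, 32 without the rich barcodes and 23 at 20 to 39 UMIs. Lower genes there (7) came to 4 at 10 to 50 UMIs, 20 with equal weight, 4 without mitochondrial genes, 3 over the median ratio, 17 at 20 CPM, 35 with no minimum, 0 at 3-fold, 3 without mitochondrial genes, Gm42418 and AY036118, and 4 at 20 to 39 UMIs. For FGR over Control, higher genes (74) came to 134 with equal weight, 159 with no minimum and 35 at 2-fold, and lower genes (61) to 120 with equal weight, 94 at 20 CPM, 165 with no minimum, 25 at 2-fold and 37 at 20 to 39 UMIs.

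Without the rich barcodes, the low-UMI over cell ratio was 9.93 for Mbp (FGR) and 21.2 (Control), and 1.12 and 1.58 for the mitochondrially coded list. There mt-Co2 was at 0.972 in the FGR library, the only one of the values computed to reverse. At 20 to 39 UMIs Camk2a came to 6.25 and 4.61, and the dendrite-localised list in the Control library to 3.29. Hbb-bs kept within 9.39 to 12.7 for FGR and 12.3 to 18.99 for Control, and FGR over Control Mbp within 0.147 to 0.228. Fewer barcodes or genes enter by construction in the narrower ranges and stricter limits. Leaving the rich barcodes out of the low-UMI pool lowers its Mbp and mitochondrial ratios by construction too. Otherwise the cause was not tested. Most listed neuronal genes stayed under 50 CPM in both pools and could not be called at this depth. No paired analysis was possible because each group is 1 library and the labels give no replicate numbers.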
